A study of Mus musculus with 4 samples.

Results

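The genes described here are 45 mouse factors that make ribosomes in the nucleolus, chosen by name and function. They were 45 of the 17194 gene symbols in the table, and all 45 were among the 15651 symbols with enough counts to test. RNA was sequenced from primary bone marrow-derived macrophages (BMMs), the marrow cells that become bone-resorbing osteoclasts when given the cytokine RANKL. Every library was taken on day 2 of RANKL. The 4 libraries form 2 groups of 2, siControl (a control siRNA) and siHells (an siRNA against Hells, a chromatin remodelling ATPase linked to DNA methylation). The question is how transcript levels change once Hells is reduced at this stage. How many animals or cultures were used, their strain and age, and what sequence each siRNA had, is not given in the sources used here.

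Ribosomes are assembled in the nucleolus around a long precursor RNA that RNA polymerase I copies from the ribosomal DNA. Small nucleolar ribonucleoproteins (snoRNPs) modify this precursor: box C/D particles add methyl groups to riboses and box H/ACA particles convert uridines to pseudouridines. The small subunit processome folds and cuts the part that becomes the small subunit, a separate set of factors builds the large subunit, and late factors finish the small subunit, in part after it has left the nucleus. Cells that grow and divide make many ribosomes, and the transcription factor Myc is a known activator of these genes.

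The siRNA target was lower in both libraries labelled siHells. Hells stood at 29.3 and 30.0 CPM (a gene's counts relative to the library total, scaled by TMM) in siControl and at 15.2 and 14.6 CPM in siHells, a log2 fold change of -0.99 and an SE of 0.068 (adjusted p = 5.96e-09). Total counts were between 48873635 and 55642819 per library. The replicates were distinct: the chi-square per gene between them, where sampling noise alone gives about 1, was 3.45 in siControl and 6.26 in siHells. The labels do not say whether replicates are separate cultures or animals, and the p-values therefore cover only the spread among these samples, which may be technical. Genes are called higher or lower where the adjusted p was under 0.05. All 8 macrophage markers and all 9 osteoclast markers on the lists were measured. Of the macrophage markers 7 were called higher in siHells and 1, Cd68, lower, and their summed level was 15598 to 15740 CPM in siControl and 23268 to 23955 CPM in siHells. The osteoclast markers were called lower in 9 of 9, with sums of 8588 to 8653 CPM against 1376 to 1416 CPM. Stromal markers were called higher in 6 of 8 and lower in 1, with sums of 1000 to 1024 CPM against 1764 to 1793 CPM. Of 7 neutrophil markers tested 5 were called lower, with sums of 481 to 488 CPM against 385 to 409 CPM. Dendritic cell markers summed to 18.1 to 19.1 CPM against 8.72 to 9.19 CPM, with 1 of 4 called lower and 2 higher. The lower sum came from Itgax, at a mean of 13.9 CPM in siControl and 0.870 CPM in siHells. Flt3 and Zbtb46 were called higher and Clec9a was not called. The only B cell marker tested, Cd79b, was at 4.32 to 4.68 CPM, and the only T and NK cell marker, Nkg7, was at 0.149 to 0.560 CPM, neither called. The 6 erythroid markers were not analysed here. What part these shifts have in the values below was not tested, and in bulk RNA fewer cells of a type and less RNA per cell cannot be told apart.

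Promoter windows, from 250 bases before to 50 bases after the transcription start, were found for 39 of the 45 factors in RefSeq's GRCm38.p6 annotation; Fbl, Npm1, Rrp12, Bop1, Rrs1 and Gnl2 had none. Both strands were searched for short motifs of factors known at growth and housekeeping promoters, and overlapping matches were kept. A gene was counted once if any of its windows held the motif. The ETS-like motif CCGGAAG was found for 15 of 39 factors (38.5%), against 18.6% of all 11698 genes with such a window. The E-box CACGTG, the site that Myc and its relatives bind, was found for 7 of 39 (17.9%), against 11.3% of those genes. The NRF1-like motif CGCATGCG and the palindrome CTCGCGAG were each found for 1 factor (2.56%), against 3.93% and 2% of those genes. The YY1-like motif AAGATGGC was found for 0, against 4.9%. A match describes letters in a window and nothing more. The 120 bases before the start are printed for 4 factors that were lower in siHells and for Heatr1, the factor with the largest rise, because all 5 hold the ETS-like letters. Capitals mark the ETS-like motif on either strand and, in Nop2, also the E-box; sequences run 5′ to 3′ on the gene's own strand. They lie at chr11:51619653-51619772 (plus strand, Nhp2), chr3:129831397-129831516 (minus strand, Gar1), chr19:46075727-46075846 (plus strand, Nolc1), chr6:125131763-125131882 (plus strand, Nop2) and chr13:12395255-12395374 (plus strand, Heatr1). Starts are those of RefSeq and can differ from the GENCODE M21 gene bounds given further on: the Heatr1 stretch lies inside those bounds and the Nhp2 stretch overlaps their first bases.
Nhp2: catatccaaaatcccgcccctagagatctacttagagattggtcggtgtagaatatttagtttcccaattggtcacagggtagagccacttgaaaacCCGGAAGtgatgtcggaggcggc
Gar1: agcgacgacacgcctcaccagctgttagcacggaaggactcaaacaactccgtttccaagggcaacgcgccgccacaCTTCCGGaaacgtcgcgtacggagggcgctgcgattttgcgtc
Nolc1: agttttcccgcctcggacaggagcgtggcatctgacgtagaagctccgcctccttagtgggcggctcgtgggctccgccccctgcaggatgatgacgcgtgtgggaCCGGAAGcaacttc
Nop2: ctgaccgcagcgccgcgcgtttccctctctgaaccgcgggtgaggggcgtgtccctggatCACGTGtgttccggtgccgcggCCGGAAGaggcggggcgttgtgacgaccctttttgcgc
Heatr1: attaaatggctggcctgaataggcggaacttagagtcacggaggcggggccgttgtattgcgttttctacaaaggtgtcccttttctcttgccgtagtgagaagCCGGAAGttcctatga

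The printed stretches were chosen for holding these letters and Heatr1 for its rise, so they cannot show whether the motif goes with direction. Of the 15 factors with the ETS-like motif 13 were called lower and 1 higher in siHells, with a median log2 fold change of -0.29. Of the 24 factors whose window lacks it 18 were called lower and 1 higher, with a median of -0.26. All 7 factors with an E-box were called lower, with a median of -0.23. Of the 32 factors with a window but no E-box 24 were called lower and 2 higher, with a median of -0.32. Over all 15651 genes tested 29.5% were called lower and 29.0% higher. The counts and medians of these factors were not compared by a test.

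Most of the 45 factors were lower in siHells. With edgeR's quasi-likelihood test and Benjamini-Hochberg adjustment over all genes, 37 were called lower, 2 higher and 6 were not called. Over all 15651 genes 29.5% were called lower and 29.0% higher. Their median log2 fold change was -0.31, which is 19.4% lower, beside a median of -0.0043 over all genes. Both siHells libraries lay below both siControl libraries for 39 of the 45, a pattern that 39.4% of all genes showed. Both lay above for 2, Heatr1 and Rrp1, and the groups overlapped for 4. Among all 15651 genes both lay above for 6119 and the groups overlapped for 3358. Tested against a change of 1.2-fold, 19 were called lower and 1 higher. In that test 2703 (17.3%) of all 15651 genes were called lower and 2713 higher. The 45 factors together took 0.357% and 0.361% of all siControl counts and 0.274% and 0.268% of all siHells counts. The plot of every factor in every library shows the libraries of a group close together for most factors.

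**Figure D1:**
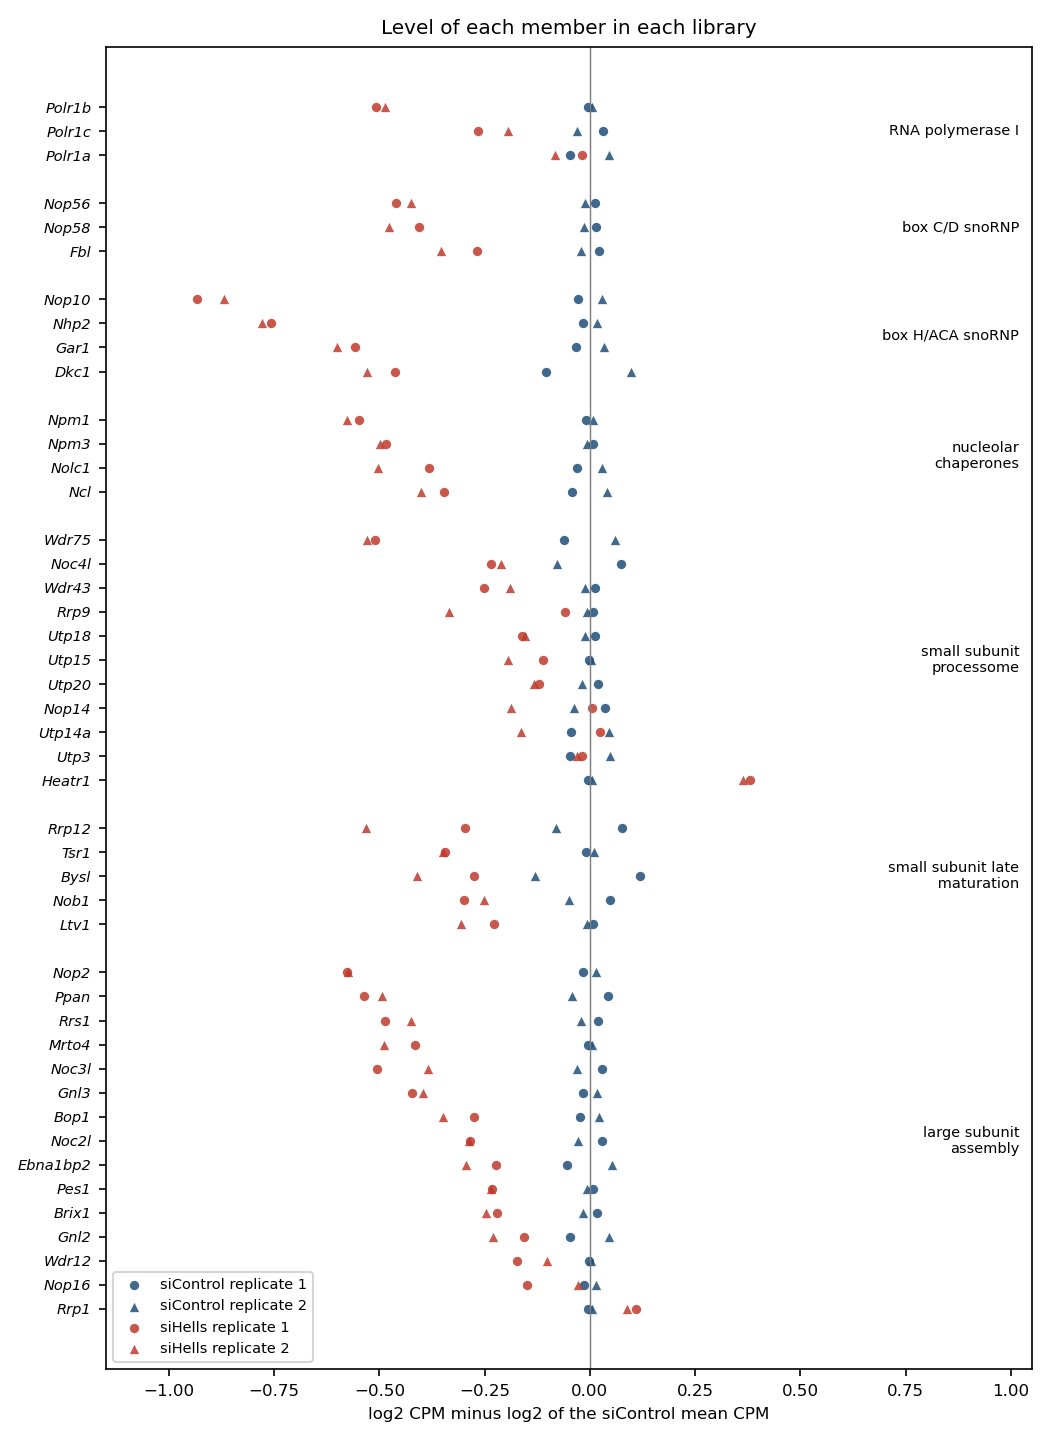
Level of each of the 45 factors in each library, as log2 CPM minus the log2 of the siControl mean (horizontal axis); each row is a gene, grouped by role, with blue for siControl, red for siHells, and circles and triangles for replicates 1 and 2. Red lies left of blue for 39 factors and right of it for Heatr1 and Rrp1.

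The 3 RNA polymerase I subunits did not move alike. Polr1b, which forms the catalytic core together with the largest subunit, was at 27.4 and 27.6 CPM in siControl and 19.3 and 19.6 CPM in siHells, a log2 fold change of -0.50 and an SE of 0.065 (adjusted p = 8.69e-06). Polr1c, shared with RNA polymerase III, was at 28.8 and 27.5 CPM against 23.4 and 24.6 CPM, a log2 fold change of -0.23 and an SE of 0.064 (adjusted p = 0.00610). In both genes the siHells libraries were the lower pair with no overlap, although without siControl replicate 1 the adjusted p of Polr1c was 0.0540. Polr1a, the largest subunit, was at 47.6 and 50.7 CPM against 48.5 and 46.4 CPM. Its groups overlapped, and its log2 fold change of -0.05 (SE 0.053) did not pass the test (adjusted p = 0.448). Against a 1.2-fold change only Polr1b was called lower (adjusted p = 0.00122). The difference between the subunits was not itself tested.

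All 3 box C/D snoRNP proteins fell, by a median of 0.44 on the log2 scale. Fbl (fibrillarin), the methyltransferase of these particles, was at 75.2 and 73.1 CPM in siControl and 61.5 and 58.0 CPM in siHells, a log2 fold change of -0.31 and an SE of 0.047 (adjusted p = 3.90e-05). Nop56, a scaffold protein of the same particle, was at 92.0 and 90.5 CPM against 66.3 and 68.0 CPM, a log2 fold change of -0.44 and an SE of 0.042 (adjusted p = 2.72e-07). Its partner Nop58 was at 69.5 and 68.2 CPM against 51.9 and 49.4 CPM, also a log2 fold change of -0.44 and an SE of 0.048 (adjusted p = 1.04e-06). The siHells libraries lay below the siControl libraries in each of the 3. Against a 1.2-fold change Nop56 and Nop58 were called lower and Fbl was not called (adjusted p = 0.138).

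The 4 box H/ACA proteins had the lowest median of the 7 roles, -0.67 on the log2 scale, and all 4 were called lower, also against a 1.2-fold change. Nop10, a small core protein of the particle (chr2:112261926-112263269, mm10, plus strand), was at 34.5 and 35.9 CPM in siControl and at 18.4 and 19.3 CPM in siHells. This was the largest fall of the 45, 1.87-fold (log2 fold change -0.90, SE 0.064, adjusted p = 8.57e-09). Nhp2, the core protein next to Nop10 (chr11:51619735-51623714, plus strand), was at 58.3 and 59.7 CPM against 34.9 and 34.4 CPM. It was 1.70-fold lower (log2 fold change -0.77, SE 0.051, adjusted p = 3.39e-09). Gar1, which helps release the substrate, was among the least abundant at 12.1 and 12.7 CPM against 8.43 and 8.18 CPM, a log2 fold change of -0.58 and an SE of 0.094 (adjusted p = 8.11e-05). Dkc1 (dyskerin), the pseudouridine synthase itself, was at 38.4 and 44.2 CPM against 29.9 and 28.6 CPM, a log2 fold change of -0.49 and an SE of 0.069 (adjusted p = 1.79e-05). The siControl libraries of Dkc1 lay further apart than those of the other 3, yet no group overlapped. These 4 proteins are also known as part of the telomerase particle.

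The 4 nucleolar chaperones were all called lower, also against a 1.2-fold change. Npm1 (nucleophosmin), a histone and ribosome chaperone (chr11:33152287-33163206, minus strand), was at 670 and 678 CPM in siControl and 460 and 452 CPM in siHells. Its log2 fold change was -0.56 (SE 0.028) and its adjusted p of 1.13e-10 was the smallest of the 45. Ncl (nucleolin), an RNA-binding protein of the nucleolus, was at 647 and 685 CPM against 523 and 504 CPM, a log2 fold change of -0.37 and an SE of 0.033 (adjusted p = 1.03e-07). These abundant transcripts weigh on the sum: Npm1 made up 19.3% and 19.2% of the counts of all 45 in siControl and 16.4% in each library of siHells. The share of Ncl was 18.6% and 19.4% against 18.6% and 18.3%, so its groups overlapped on that measure. Nolc1, a chaperone of snoRNPs, was at 86.1 and 89.7 CPM against 67.4 and 62.0 CPM, a log2 fold change of -0.44 and an SE of 0.049 (adjusted p = 1.37e-06). Npm3, a relative of nucleophosmin, was at 20.9 and 20.7 CPM against 14.9 and 14.7 CPM, a log2 fold change of -0.49 and an SE of 0.073 (adjusted p = 3.28e-05).

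The small subunit processome was the most mixed role. Of its 11 proteins 6 were called lower, 1 higher and 4 were not called, with a median of -0.15. Against a 1.2-fold change 1 of them, Wdr75, was called lower. Heatr1 (chr13:12395027-12440289, plus strand), a large scaffold of the complex that first binds the nascent precursor RNA, rose. It was at 67.2 and 67.6 CPM in siControl and at 87.7 and 86.8 CPM in siHells, 1.29-fold higher (log2 fold change 0.37, SE 0.042, adjusted p = 1.75e-06). Both siHells libraries stood well above both siControl libraries, and Heatr1 was the only 1 of the 45 called higher against a 1.2-fold change (adjusted p = 0.00864). Wdr75, Wdr43 and Utp15 belong to the same early complex and were all called lower. Wdr75 was at 38.6 and 41.9 CPM against 28.3 and 27.9 CPM, a log2 fold change of -0.52 and an SE of 0.061 (adjusted p = 2.58e-06). Wdr43 was at 72.1 and 71.0 CPM against 60.1 and 62.7 CPM, a log2 fold change of -0.22 and an SE of 0.045 (adjusted p = 6.66e-04). Utp15 was at 40.9 and 41.0 CPM against 37.9 and 35.8 CPM, a log2 fold change of -0.15 (adjusted p = 0.0266).

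Several calls in this role were narrow. Utp18, a WD-repeat protein of another processome complex, showed a log2 fold change of -0.16 (adjusted p = 0.0311), and Utp20, a very large scaffold protein, one of -0.13 (adjusted p = 0.0318). With any 1 library left out Utp18 no longer passed, with adjusted p between 0.0619 and 0.124. Utp15 and Utp20 no longer passed without siControl replicate 1 (0.0811 and 0.162), siControl replicate 2 (0.114 and 0.0889) or siHells replicate 2 (0.151 and 0.0706). Noc4l, the partner of Nop14, showed a log2 fold change of -0.23 (adjusted p = 0.0144), and an adjusted p of 0.178 without siControl replicate 1.

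The 4 processome proteins that were not called differed in how their libraries lay. Utp3 was at 64.4 and 68.8 CPM in siControl and 65.7 and 65.3 CPM in siHells, a log2 fold change of -0.02 (adjusted p = 0.692). Utp14a, which activates a processome helicase, was at 44.6 and 47.5 CPM against 46.8 and 41.1 CPM, a log2 fold change of -0.07 (adjusted p = 0.397). Nop14 was at 45.8 and 43.5 CPM against 44.8 and 39.3 CPM, a log2 fold change of -0.09 (adjusted p = 0.252). In these 3 the groups overlapped. Rrp9, a protein of the snoRNP that guides early cleavage, was at 16.0 and 15.9 CPM against 15.3 and 12.7 CPM, with no overlap (log2 fold change -0.19, adjusted p = 0.0932). In Rrp9, Utp14a and Nop14 siHells replicate 2 was the lowest library, and without siHells replicate 1 all 3 passed, with adjusted p of 0.00551, 0.0274 and 0.0112.

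All 5 late small subunit factors were called lower, with a median of -0.35. Against a 1.2-fold change 1 of the 5, Rrp12, was called lower (adjusted p = 0.0424). Tsr1, a GTPase-like factor of the late particle, was at 45.6 and 46.3 CPM in siControl and 36.2 and 36.1 CPM in siHells, a log2 fold change of -0.35 and an SE of 0.052 (adjusted p = 3.60e-05). Rrp12, known for export of the particles, was at 26.3 and 23.6 CPM against 20.3 and 17.2 CPM, a log2 fold change of -0.41 and an SE of 0.085 (adjusted p = 6.98e-04). Ltv1, a factor that holds the head of the small subunit, was at 37.3 and 36.8 CPM against 31.7 and 30.0 CPM, a log2 fold change of -0.27 and an SE of 0.058 (adjusted p = 9.84e-04). No group overlapped in these. Nob1, the nuclease that makes the final cut of the small subunit RNA, showed a log2 fold change of -0.28 (adjusted p = 0.00388), and Bysl, which joins the particle earlier, one of -0.35 (adjusted p = 0.00346). Bysl varied more in siControl, at 24.3 and 20.4 CPM, and without siControl replicate 1 its adjusted p was 0.0721.

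Of the 15 large subunit factors 13 were called lower, 1 higher and 1 was not called, with a median of -0.29. Nop2, a methyltransferase of the large subunit RNA, was at 62.1 and 63.5 CPM in siControl and 42.1 and 42.2 CPM in siHells, a log2 fold change of -0.58 and an SE of 0.048 (adjusted p = 5.80e-08). Gnl3 (nucleostemin), a nucleolar GTPase of dividing cells, was at 58.1 and 59.4 CPM against 43.8 and 44.6 CPM, a log2 fold change of -0.41 and an SE of 0.049 (adjusted p = 3.10e-06). Ppan was at 31.2 and 29.4 CPM against 20.9 and 21.5 CPM, a log2 fold change of -0.52 and an SE of 0.065 (adjusted p = 5.85e-06). In all 3 the libraries of a group were close and the groups far apart. Rrs1, needed to bring in the particle of the smallest ribosomal RNA, Noc3l and Mrto4, which holds the place of a stalk protein, had log2 fold changes of -0.46, -0.45 and -0.45. These 6, and no others of the 15, also passed the test against a 1.2-fold change.

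Smaller falls were found in other large subunit factors. Pes1, Bop1 and Wdr12 form a complex of their own in early assembly. Pes1 was at 123 and 122 CPM in siControl and 104 CPM in each of the siHells libraries, a log2 fold change of -0.23 (adjusted p = 6.22e-05). Bop1 showed a log2 fold change of -0.31 (adjusted p = 8.36e-05), and Wdr12 one of -0.14 with an adjusted p of 0.0449. Wdr12 passed only narrowly: the adjusted p was 0.119 without siControl replicate 1, 0.170 without siControl replicate 2 and 0.200 without siHells replicate 1. Noc2l, a partner of Noc3l, had a log2 fold change of -0.29, Ebna1bp2 one of -0.26 and Brix1 one of -0.23, all called. Gnl2, a nucleolar GTPase, had one of -0.19 (adjusted p = 0.00642), and an adjusted p of 0.104 without siControl replicate 2.

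Rrp1 was the only large subunit factor called higher, and Nop16 the only one not called. Rrp1 (chr10:78400384-78413043, minus strand) was at 145 and 146 CPM in siControl and 157 and 154 CPM in siHells, a log2 fold change of 0.10 and an SE of 0.035 (adjusted p = 0.0243). The libraries did not overlap but the difference was small. It did not pass without siControl replicate 1 (adjusted p = 0.176) or without siControl replicate 2 (0.0813), nor with upper-quartile scaling (0.118) or library totals (0.549), which left Heatr1 as the only 1 called higher. Nop16 was at 27.1 and 27.7 CPM against 24.7 and 26.9 CPM, so both siHells libraries were the lower pair, with a log2 fold change of -0.09 (adjusted p = 0.264).

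**Figure D2:**
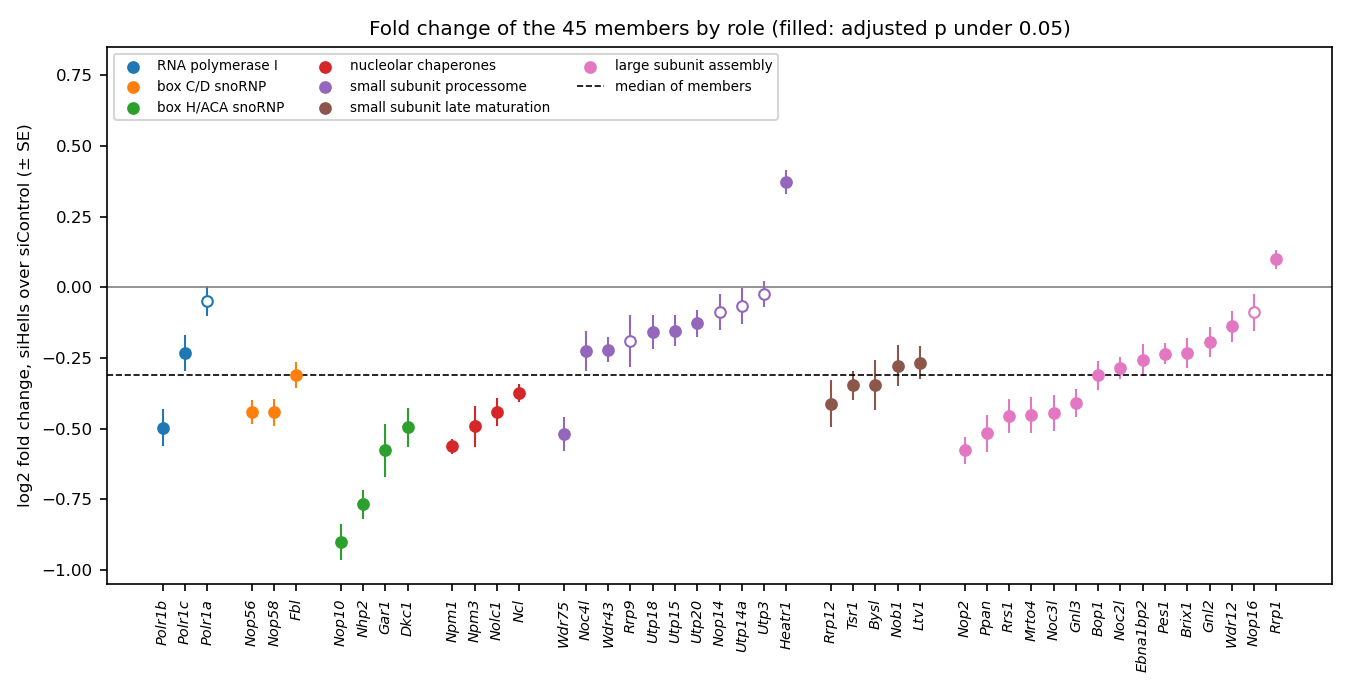
Log2 fold change of siHells over siControl with its standard error (vertical axis) for each of the 45 factors (horizontal axis), coloured by role; filled points passed an adjusted p of 0.05, open points did not, and the dashed line is the median of -0.31. The box H/ACA proteins Nop10 (-0.90) and Nhp2 (-0.77) lie lowest and Heatr1 (0.37) highest.

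Levels can be set side by side between genes once divided by exon length. In siControl Npm1 was highest at 253 CPM per kilobase of exon, followed by Ncl at 65.3, Nhp2 at 51.5, Noc2l at 46.9, Rrp1 at 43.5, Utp3 at 40.9 and Pes1 at 40.6. In siHells the level per kilobase of Npm1 was 171 and that of Ncl 50.4. Nhp2 was then at 30.2 CPM per kilobase, below Rrp1 at 46.6, Utp3 at 40.2, Noc2l at 38.5 and Pes1 at 34.5. The lowest level was that of Wdr12, at 3.23 CPM per kilobase in siControl and 2.93 in siHells. The exon lengths are unions over annotated transcripts, so a gene with long rare exons is placed too low.

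**Figure D3:**
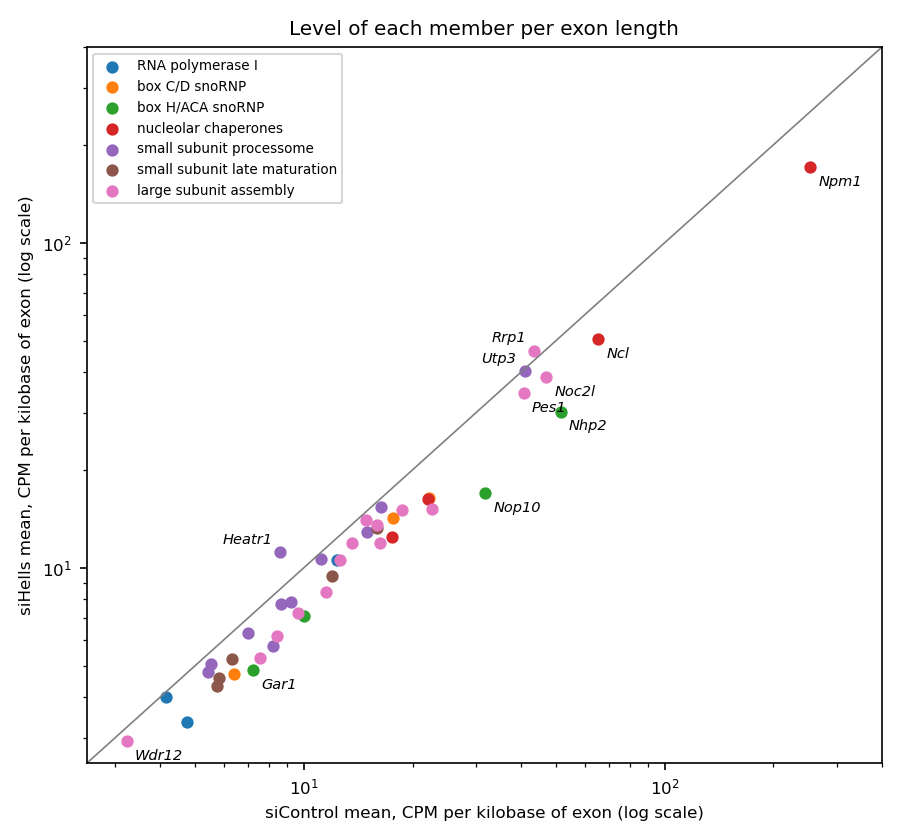
Mean level of each factor in siHells (vertical axis) against siControl (horizontal axis), in CPM per kilobase of exon on log scales; each point is a gene, coloured by role, and the line marks equal levels. Npm1 stands apart at 253 in siControl and 171 in siHells, and Heatr1 and Rrp1 lie above the line.

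Neighbouring genes and copies limit some of these values, since the labels do not settle whether reads kept their strand. In the GENCODE M21 annotation 18 of the 45 share exon sequence with a gene on the opposite strand, and 13 of those were called lower and 1 higher. Some neighbours moved the other way. Ccnd3, which overlaps Bysl, was higher in siHells with a log2 fold change of 0.86, and Lgals8, which overlaps Heatr1, was lower with one of -0.14. Idh3b, which overlaps Nop56, was lower with one of -0.47. If strand was lost, reads from the exon sequence this pair shares cannot be told apart. Near-identical pseudogenes, at least 95% identical over at least 200 bases, exist for Fbl, Nop56, Npm1, Npm3, Pes1, Wdr12 and Mrto4, and the counts of these 7 are uncertain for that reason. Of the 24 factors with neither an overlap nor such a copy 21 were called lower and 1 higher, with a median of -0.33.

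A group of these genes carries small nucleolar RNAs within its bounds. The 8 with an annotated snoRNA gene inside were Nop56, Nop58, Dkc1, Ncl, Wdr43, Tsr1, Gnl3 and Ppan. All 8 were called lower, with a median of -0.43, and the other 37 had 29 called lower and a median of -0.27. This difference was not tested, and the counts of the host genes say nothing about the snoRNAs themselves.

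The rest of the pathway was read from 7 lists of 125 other ribosome biogenesis genes, all tested. Of these 51 were called lower, 11 higher and 63 not called, with a median of -0.15. Over all 15651 genes 29.5% were called lower and 29.0% higher, the shares to set beside each list's counts below. Scaled by library totals instead of TMM, 80 were called lower and 4 higher, so the lower share of called genes was 95.2% rather than 82.3%. Over all genes the same change of scaling moved that share from 50.4% to 59.3%. With 1 library left out the median of the 125 genes ranged from -0.16 without siControl replicate 1 to -0.0956 without siHells replicate 2.

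Among 13 other RNA polymerase I subunits and initiation factors 2 were called lower and 3 higher, with a median of -0.02. Polr1d, a subunit shared with RNA polymerase III, showed a log2 fold change of -0.25 (adjusted p = 1.35e-04), and Taf1b, of the promoter selectivity factor, one of -0.27 (adjusted p = 0.00755). Taf1c, of the same factor, had 0.25, Znrd1, a small subunit of the polymerase, 0.23 and Ttf1, the terminator protein, 0.20. Narrow calls among them were lost with 1 library left out. Without siControl replicate 1 the adjusted p was 0.0648 for Taf1b, 0.194 for Taf1c and 0.0909 for Ttf1. Without siControl replicate 2 it was 0.240 for Znrd1 and 0.0521 for Ttf1, and without siHells replicate 1 it was 0.101 and 0.0930. Without siHells replicate 2 it was 0.187 for Taf1c and 0.0546 for Znrd1.

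Of 30 other processome factors 14 were called lower and 3 higher, with a median of -0.15. Utp11 was at 56.3 and 52.8 CPM in siControl and 39.2 and 37.6 CPM in siHells, a log2 fold change of -0.51 (adjusted p = 8.95e-07). Wdr3 was the largest rise, from 66.2 and 70.0 CPM to 154 and 158 CPM, 2.29-fold higher with an SE of 0.042 on the log2 scale (adjusted p = 1.55e-12). Its exons overlap those of Gdap2 on the opposite strand, which rose too, from a mean of 33.6 CPM to 115 CPM (log2 fold change 1.77, adjusted p = 3.77e-14). If strand was lost, reads from the exon sequence the pair shares cannot be told apart. Utp23 had a log2 fold change of 0.27 and Nop9 one of 0.13. Without siControl replicate 1 the adjusted p of Utp23 was 0.0579. That of Nop9 lay between 0.0714 and 0.159 when any 1 library was left out.

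Of 7 other late small subunit factors 4 were called lower and 0 higher, with a median of -0.25. Pno1, which covers the end of the small subunit RNA, showed a log2 fold change of -0.31 (adjusted p = 2.83e-04), and the kinase Riok2 one of -0.25 (adjusted p = 0.00600). Exons of Pno1 overlap those of Wdr92 on the opposite strand, which was lower too (log2 fold change -0.54). The limit given for Wdr3 and Gdap2 holds for this pair as well. The adjusted p of Riok2 was 0.125 without siControl replicate 2.

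Of 36 other large subunit factors 16 were called lower and 3 higher, with a median of -0.16. Mak16 was at 62.1 and 65.9 CPM in siControl and 42.6 and 38.8 CPM in siHells, a log2 fold change of -0.65 (adjusted p = 8.00e-08). Mdn1, a giant ATPase that removes assembly factors, was at 72.9 and 74.5 CPM against 52.1 and 50.3 CPM, a log2 fold change of -0.53 (adjusted p = 1.03e-07). Sbds, which helps release an anti-association factor from the large subunit, had a log2 fold change of 0.20, Nop53 one of 0.18 and the export adaptor Nmd3 one of 0.16. Without siControl replicate 2 the adjusted p was 0.0645 for Sbds and 0.0907 for Nmd3, and without siHells replicate 1 that of Nmd3 was 0.0891.

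The 15 nucleolar RNA helicases had 5 called lower and 2 higher, with a median of -0.08. Ddx21 was at 166 and 170 CPM in siControl and 131 and 128 CPM in siHells, a log2 fold change of -0.38 (adjusted p = 2.69e-07). Dhx37, the processome helicase that Utp14a activates, was at 28.4 and 27.4 CPM against 17.2 and 18.3 CPM, a log2 fold change of -0.65 (adjusted p = 7.71e-07). Ddx24 had a log2 fold change of 0.19 and Dhx33 one of 0.18. The adjusted p of Dhx33 was 0.0931 without siControl replicate 2.

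Neither snoRNP assembly factors nor the RNA exosome had a gene called higher. Of 10 assembly factors 4 were called lower, with a median of -0.21. Snu13, a core protein of the box C/D particle, showed a log2 fold change of -0.31 (adjusted p = 5.80e-05), and Pih1d1, of the chaperone complex that loads it, one of -0.37 (adjusted p = 2.09e-04). Pih1d1 shares exon sequence with Aldh16a1 on the opposite strand, at a mean of 59.7 CPM in siControl and 45.8 CPM in siHells (log2 fold change -0.38), so the same limit holds there. Of 14 exosome genes, whose products trim the precursor RNA, 6 were called lower, with a median of -0.19. Exosc8 showed a log2 fold change of -0.46 (adjusted p = 5.11e-05) and the nuclease Dis3 also one of -0.46 (adjusted p = 7.56e-05). Supt20, which overlaps Exosc8 on the opposite strand, was higher, with a log2 fold change of 0.26.

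Other growth genes were lower in the same libraries. Of 77 cytosolic ribosomal protein genes 75 were called lower and 0 higher, with a median of -0.38. All 20 proliferation genes on the list, among them Mki67 and the Mcm helicase genes, were called lower, with a median of -0.55. Myc was at 49.6 and 49.9 CPM in siControl and 41.8 and 39.1 CPM in siHells, a log2 fold change of -0.30 and an SE of 0.053 (adjusted p = 1.74e-04). What part the lower proliferation genes or the lower Myc have in the 45 factors' values was not tested.

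**Figure D4:**
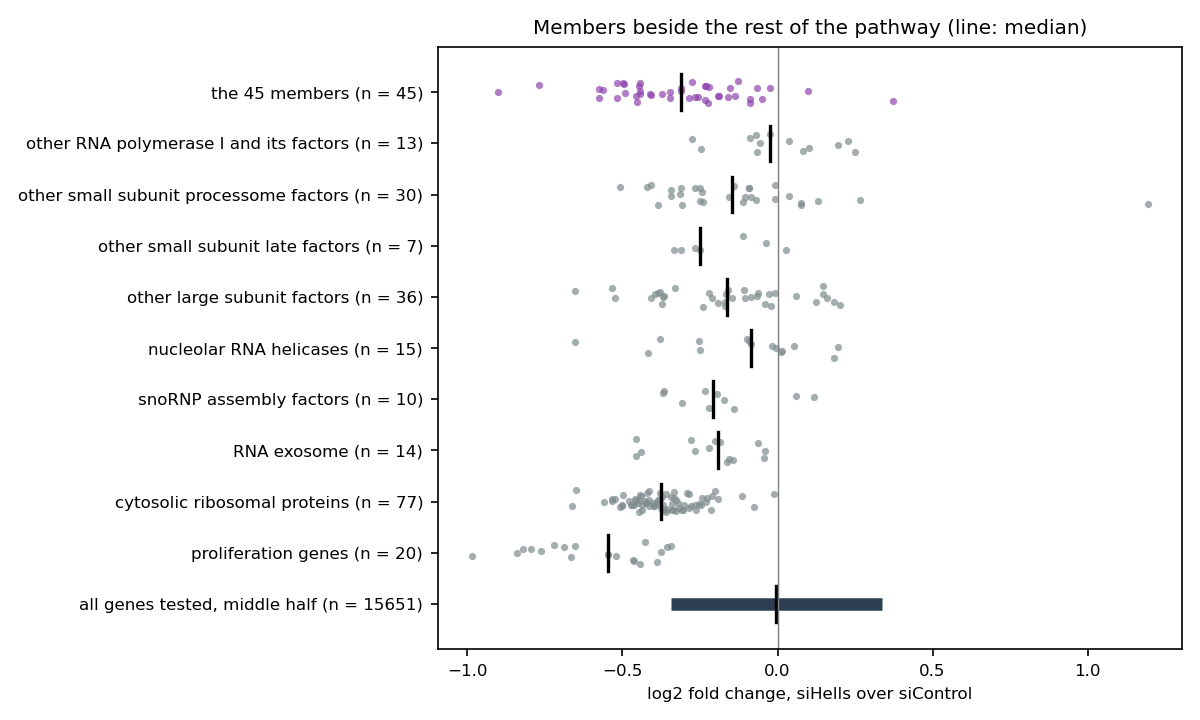
Log2 fold change of siHells over siControl (horizontal axis) for the 45 factors, the 7 lists of other ribosome biogenesis genes, the cytosolic ribosomal proteins and the proliferation genes (rows); points are genes, black lines are medians, and the bar spans the middle quartiles of all 15651 genes tested, from -0.34 to 0.34. The median is -0.31 for the 45 factors, -0.38 for the ribosomal proteins and -0.55 for the proliferation genes, and Wdr3, 2.29-fold higher, lies far right.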

How the data were processed

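Polyadenylated RNA was measured in 4 libraries, 2 labelled siControl and 2 siHells. The authors deposited unnormalised whole-number counts per gene symbol in 1 table. The tools HISAT2 2.1.0, StringTie 2.1.3b, Trimmomatic 0.38, edgeR and FastQC and the build mm10 are named in the submitters' processing notes. The annotation, like the strand setting and each tool's role, is not given in the sources used here. Labelled extraction text names 2 library kits, 1 of them stranded, per the labels' protocols, so strand is unknown. The table's lowest count was 1, so genes with no read in any 1 library were not analysed here.

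Total counts were 53502523 and 48873635 (siControl) and 55642819 and 55012697 (siHells). Genes were kept by filterByExpr (minimum count 10, minimum total 15), scaled by TMM and tested with the quasi-likelihood test of edgeR 4.0.16 (R 4.3.3, robust, current form, group as the only term, 2 residual degrees of freedom). P-values were Benjamini-Hochberg adjusted over 15651 genes, and 0.05 was the threshold. Fold changes divide siHells by siControl. The procedure was tested on simulated data. Alternatives were other scalings and filters, DESeq2 1.42.0, limma voom (limma 3.58.1), the legacy edgeR fit, a replicate block, each library left out, a threshold of 0.01 and a 1.2-fold minimum; corrections for gene length and GC content were chosen after seeing the data.

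The 45 genes and all lists were chosen with earlier results of these data known. Full values are given for the 3 genes with the smallest p in each of 7 roles, those called against the majority and those not called. The genes with the 4 highest and the 4 lowest log2 fold changes were also included, though only Heatr1 and Rrp1 rose. Other lists name their 2 smallest p and, where 5 or fewer, the genes called against the majority. Gene bounds, exon lengths and overlaps come from GENCODE M21 and promoters from RefSeq GRCm38.p6. Protein sequences were not analysed here.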

Additional observations from a re-analysis of the deposited data

How the results depend on the processing

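Of the 45 factors 20 had the same call under all 17 alternatives, among them Nop10, Nhp2, Npm1, Npm3, Nop2, Nop56 and Heatr1. Their sizes were less fixed. Over the alternatives the log2 fold change ranged from -0.97 to -0.72 for Nop10 and from -0.84 to -0.60 for Nhp2. It ranged from -0.57 to -0.33 for Npm3, from -0.64 to -0.54 for Npm1 and from 0.30 to 0.39 for Heatr1. The count called higher was 1 with upper-quartile scaling, library totals, the DESeq2 Wald test and a threshold of 0.01. Tested against a 1.2-fold change, 19 factors were called lower and 1 higher, and of the 125 other biogenesis genes 17 lower and 1 higher. In that test 17.3% of all 15651 genes were called lower, a share that the 17 of 125 did not exceed. Of those others 80 were called lower and 4 higher with library totals, 7 higher with the DESeq2 Wald test and 6 higher with a threshold of 0.01. The medians were -0.34 and -0.18 with upper-quartile scaling and -0.38 and -0.22 with library totals; under the latter the median of all genes was -0.078. With 1 library left out, 30 to 38 factors were called lower and 1 to 2 higher, with medians of -0.35 to -0.28, and of the others 44 to 54 lower and 6 to 10 higher, with medians of -0.16 to -0.0956. The lone library of an arm is then assumed to vary like the other group. Among factors that were not called, Utp3 turned to 0.072 with the length correction and ranged from -0.079 to 0.031 with a siControl library left out, Polr1a ranged from -0.10 to 0.0032, and with a siHells library left out Utp14a ranged from -0.16 to 0.028 and Nop14 from -0.18 to 0.0074. With the length correction Polr1a was called lower (log2 fold change -0.17, adjusted p = 0.0107). The causes were not tested. With the replicate number as a block 36 factors were called lower and 2 higher. The differences between replicates 1 and 2 correlated at 0.0407 between the groups over 11997 genes. With 1 such difference per group, this cannot settle whether equal numbers mark a shared culture or animal. Groups of 2, with 2 residual degrees of freedom, limit the test; no setting with fewer counts was run, so what depth limits was not tested.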

Other observations

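Over the 45 factors the log2 fold change had a Pearson correlation of 0.37 and a Spearman correlation of 0.213 with the log2 exon length, and over 14610 genes the Spearman correlation was 0.157. With GC content the values were -0.0759 and -0.116 over the 45, and with the log2 mean CPM in siControl 0.0496 and 0.124. These describe genes measured in the same 4 libraries, which are not independent replicates.

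Each siHells library gave a like picture of the 45. Relative to the siControl mean the median was -0.28 in siHells replicate 1 and -0.35 in replicate 2 on the log2 scale, with 41 and 43 factors below that mean. Replicate 2 was the lowest of the 4 libraries for 27 factors and replicate 1 for 15. Between the 2 siControl libraries the median log2 difference was 0.0049.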
